A study of Rattus norvegicus with 36 samples.

Results

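The comparison asks what 1 day of cocaine, compared with saline alone, left in the RNA of the rat nucleus accumbens. The Sal–Coc group (3 pools) was set against the Sal–Sal group (3 pools), 6 of the 9 pools of the series, and the 3 Coc–Coc pools, which received 15 cocaine injections, entered only the shared estimate of the spread. All rats were Sprague-Dawley animals, 8 weeks old by the labels, and male by the study's methods. All received injections on 5 successive days. Sal–Sal rats received 15 injections of physiological serum. Sal–Coc rats received serum first and 3 cocaine injections on the last day, after 13 serum injections by the labels, a number that exceeds 15 together with the cocaine. The treatment was given by the experimenter and the tissue was taken the day after the last injection, so the values describe a state that followed the drug by a day. Each library is labelled as 1 rat, whereas the methods state that each pool joined the tissue of a pair of rats. The phenotype label of the Sal–Coc libraries reads saline rat. Members were chosen by title, description and treatment, and the counts of the 4 technical replicates of each pool were summed.

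Cocaine blocks the reuptake of dopamine, serotonin and noradrenaline and so prolongs the signal of dopamine fibres in the striatum. The nucleus accumbens, the core of the ventral striatum, is made up mostly of GABAergic projection neurons that receive dopamine and glutamate together. Dopamine D1 receptors on these cells raise cAMP, which leads through protein kinase A to the transcription factor CREB and to immediate early genes, and later to changes in receptors, channels and chromatin that can outlast the drug.

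Totals ranged from 36372166 to 42449841 counts per pool, and 15641 of 31546 genes passed the filter on low counts and were tested. On the first principal component (31.7% of the variance) the Sal–Sal pools lay at -42.82, -34.12 and -7.6 and the Sal–Coc pools at 27.51, 17.73 and 19.15. On the second (23.3%) Sal–Sal pool 3 (35.99) and Sal–Coc pool 1 (34.51) stood together, apart from all other pools (-18.41 to 2.44). Normalization factors were 0.9151 in Sal–Sal pool 1, 1.0808 in Sal–Coc pool 1 and 0.987 to 1.0182 in the others. The tables list Ensembl identifiers without symbols, and only genes that the study itself listed as differentially expressed on these same libraries could be paired with a symbol (1504 of the genes tested). Of these paired genes, 938 were higher in Sal–Coc (62.4%), 423 were lower (28.1%) and 143 did not pass the test, so 90.5% of them were called. The number of called members in any gene list below is therefore not independent evidence of a direction and stands beside these shares. The same holds for separate pools and for sums or medians over the members of a list. Nothing is known here of the listed genes without a symbol. Drd1, Drd2, Penk and Pdyn, which define striatal projection neurons, were not paired, and the tissue label could not be checked against them. In these bulk samples, fewer cells of a type and less RNA per cell cannot be told apart. Nothing in the labels says that the rats of different pools were treated or dissected on separate days, and the p-values measure the spread between these pools.

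Transcription starts of genes that turn up below are shown first, since CREB binds a known 8-base element and the ribosomal protein genes share a pyrimidine-rich start. The 3 promoters belong to genes lower in Sal–Coc that hold the full cAMP response element TGACGTCA (capitals, a palindrome and so the same on both strands) in the 250 bases before a RefSeq start of the assembly GRCr8. Cox8a encodes a subunit of cytochrome c oxidase, Jund an AP-1 transcription factor and Ubn2 a histone chaperone subunit. Given from 5′ to 3′ on the strand of the gene, they lie at chr1:213833624-213833873 (minus strand), chr16:18769772-18770021 (minus) and chr4:68133011-68133260 (plus).
Cox8a: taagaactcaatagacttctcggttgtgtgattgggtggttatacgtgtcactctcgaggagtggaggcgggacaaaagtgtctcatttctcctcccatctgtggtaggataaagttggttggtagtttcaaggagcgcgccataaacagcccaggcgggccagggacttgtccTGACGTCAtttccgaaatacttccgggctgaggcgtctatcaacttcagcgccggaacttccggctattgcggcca
Jund: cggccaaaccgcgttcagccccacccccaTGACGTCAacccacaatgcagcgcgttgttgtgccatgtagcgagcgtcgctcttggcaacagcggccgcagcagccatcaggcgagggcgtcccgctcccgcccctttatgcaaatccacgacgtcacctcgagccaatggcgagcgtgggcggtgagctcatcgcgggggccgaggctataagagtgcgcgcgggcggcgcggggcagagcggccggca
Ubn2: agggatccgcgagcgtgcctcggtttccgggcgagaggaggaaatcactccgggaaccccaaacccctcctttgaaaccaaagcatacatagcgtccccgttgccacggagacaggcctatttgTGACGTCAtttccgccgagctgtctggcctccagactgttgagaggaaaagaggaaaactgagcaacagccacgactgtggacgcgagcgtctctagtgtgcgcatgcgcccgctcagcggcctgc

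The element began 76 bases before the start in Cox8a, 221 before it in Jund and 126 before it in Ubn2. Mean levels fell from 145 to 69.7 CPM (counts scaled to a common library size) in Cox8a, from 66.7 to 32.9 CPM in Jund and from 45.7 to 27.0 CPM in Ubn2. Of the 303 paired lower genes with a promoter in the RefSeq table, 18 held this element. Of the 728 paired higher genes 17 did, and of the 105 paired genes not called 5 did. The element was present in 3.52% of all paired genes with a promoter and in 2.0% of all 27457 genes in the table. Only 71.6% of the lower and 77.6% of the higher paired genes had a promoter there, under the 80% set as a minimum, so a comparison of motif shares or of GC content between the groups is void. A match is a description of these letters and not a site at which binding was measured.

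The 50 bases around the start of 3 ribosomal protein genes, 25 on either side on the strand of the gene, are shown because all 33 paired ribosomal protein genes were lower in Sal–Coc (below). CTTTCC is in capitals. They lie at chr2:177964582-177964631 (minus), chr10:83519039-83519088 (plus) and chr9:49143086-49143135 (plus) of GRCr8.
Rps27: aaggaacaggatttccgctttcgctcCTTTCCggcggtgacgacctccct
Rpl19: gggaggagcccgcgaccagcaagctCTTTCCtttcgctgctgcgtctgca
Rpl31: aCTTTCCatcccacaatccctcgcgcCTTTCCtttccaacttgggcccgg

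CTTTCC on the gene's strand was present in these 50 bases in 9 of the 26 ribosomal protein genes with a promoter in the table and in 2.52% of all its genes. Only 78.8% of the 33 genes had a promoter there, under the same minimum, so these shares are not compared.

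After 1 day of cocaine, 2572 of 15641 genes (16.4%) passed edgeR's quasi-likelihood test (Benjamini-Hochberg adjusted p under 0.05), 1655 of them higher in Sal–Coc (10.6%) and 917 lower (5.86%). Most differences were small. The median log2 fold change over all genes was -0.01, the middle 80% of genes lay between -0.39 and 0.56, and 58.3% of genes differed by less than 1.2-fold. Among the called genes the median increase was 1.46-fold and the median decrease was to 0.733 of the Sal–Sal level, 56.1% of calls lay between 1.2- and 1.5-fold, and 304 genes reached 2-fold (198 higher and 106 lower). A test against a limit of 1.2-fold, which asks whether a change is larger than that and not only different from none, was passed by 576 genes (3.68%), of which 459 were higher (2.93%) and 117 were lower (0.748%). Against a limit of 1.5-fold 0 genes passed in edgeR, with 699 at an unadjusted p under 0.05 and a smallest adjusted p of 0.0734. All 3 Sal–Coc pools lay beyond all 3 Sal–Sal pools for 5644 genes (36.1%), and 2557 of the 2572 called genes were among these.

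These numbers depended on single pools. Without Sal–Sal pool 1, 982 genes were called, and without Sal–Coc pool 2 or 3 there were 1203 and 1201. The 1.2-fold limit was passed by 85 genes without Sal–Sal pool 1, by 225 without Sal–Sal pool 2, by 0 without Sal–Coc pool 2 and by 3 without Sal–Coc pool 3, against 912 without Sal–Sal pool 3. Without both pools that stood apart on the second component there were 2906 calls, 929 past the 1.2-fold limit and 53 past the 1.5-fold limit. The share of calls that were higher was 64.3%, and it was 82.6% when counts were scaled by library size only (1863 higher and 392 lower).

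**Figure D1:**
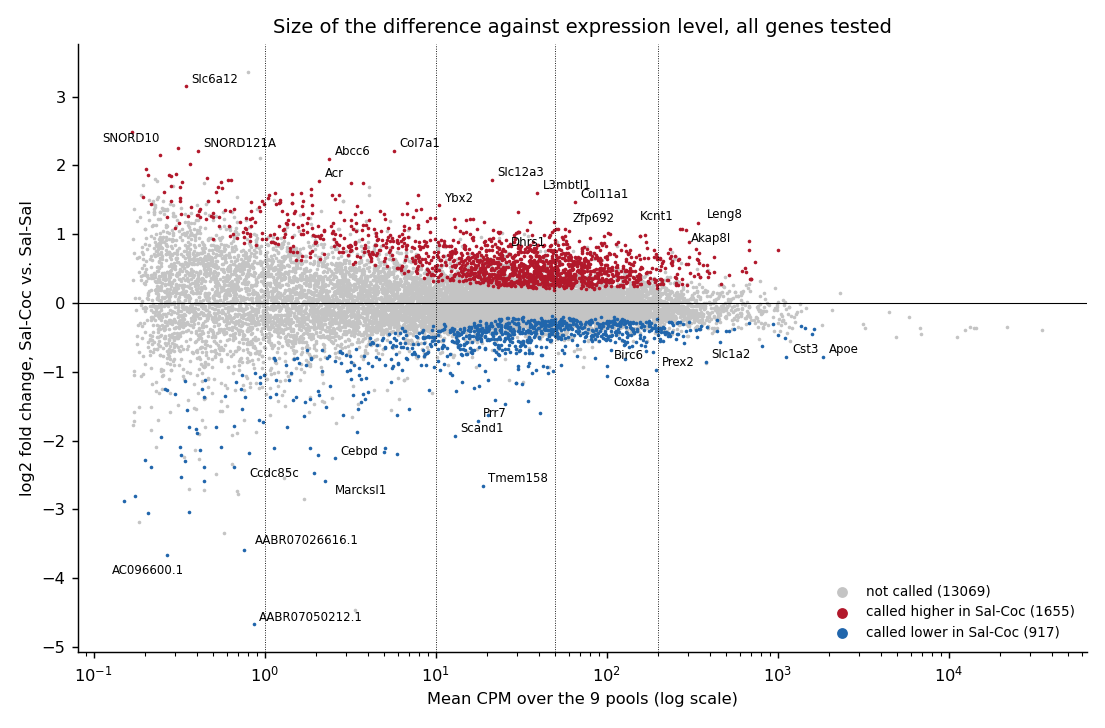
Each point is 1 of the 15641 genes tested, with its mean CPM over the 9 pools on a log axis and its log2 fold change in Sal–Coc vs. Sal–Sal. Dotted lines at 1, 10, 50 and 200 CPM divide the 5 expression classes, labelled points are the 3 largest increases and decreases among called genes with a symbol in each class, and the called differences reach from 3.15 to -4.67 on the left and from 1.16 to -0.85 on the right.

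Called differences were largest among the lowest expressed genes, and the share of genes called rose from the lowest class to that of 10 to 50 CPM and was lower above it. Genes were divided by their mean over all 9 pools into 5 classes. Under 1 CPM, 123 of 2006 genes were called (6.13%), with a median absolute log2 fold change of 1.39. From 1 to 10 CPM there were 419 of 3685 (11.4%) and a median of 0.85. From 10 to 50 CPM 1148 of 5391 were called (21.3%), with a median of 0.47, and from 50 to 200 CPM 751 of 3731 (20.1%), with a median of 0.41. At 200 CPM and above 131 of 828 genes were called (15.8%), with a median of 0.45. The median standard error over all genes of a class fell from 0.39 under 1 CPM to 0.09 between 50 and 200 CPM and was 0.11 at 200 CPM and above, so the smallest called difference was 0.84 in the first class and 0.19 between 10 and 50 CPM. Without Sal–Sal pool 1 the calls in the 5 classes, from the lowest up, were 28, 148, 471, 296 and 38, the fewest when any 1 pool was left out.

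The direction also moved with level. Log2 fold changes were above 0 in 57.8% of genes under 1 CPM and in 32.5% of genes at 200 CPM and above, and the class medians went from 0.14 to -0.09. These class values were not computed with other scalings. The median over all genes was -0.011 in this fit, 0.072 with scaling by library size only and -0.037 with upper-quartile normalization. The last class held 48.5% of all counts. Its calls were nevertheless more often higher (73) than lower (58), and of the 24 genes in it that passed the 1.2-fold limit 23 were higher. Among the called genes of 2-fold or more, 112 lay under 1 CPM and 4 at 200 CPM and above.

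**Figure D2:**
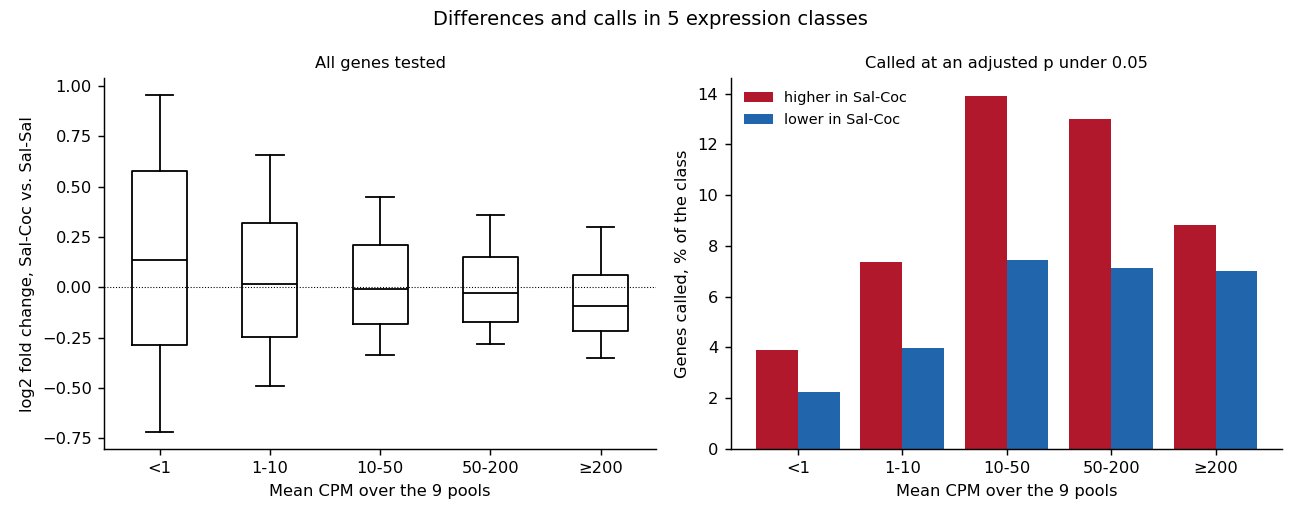
The left panel gives the log2 fold changes of all genes tested in each expression class (line, median; box, middle 50%; whiskers, middle 80%), and the right panel gives the percentage of each class called higher or lower. The medians fall from 0.14 to -0.09, and calls are most frequent at 10 to 50 CPM, with 13.9% higher and 7.44% lower.

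The genes named by class were chosen among called genes with separate pools, so the separation of their pools was a condition of choice. In the lowest class the largest increase was that of Slc6a12, the betaine and GABA transporter BGT1. It had 2, 1 and 5 reads in the Sal–Sal pools and 20, 26 and 27 in the Sal–Coc pools (log2 fold change 3.15 ± 0.48 SE, adjusted p = 0.00487). SNORD10 (3, 7 and 2 reads against 25, 20 and 14) and SNORD121A (1, 7 and 7 against 27, 26 and 17), which guide chemical modification of other RNAs, followed at 2.25 and 2.21. Small nucleolar RNA genes often lie within introns of other genes, and how the counting treated reads of the host transcript is not given in the sources used here. The libraries were made from polyadenylated RNA, and which transcripts these reads came from was not tested. All 3 genes were called higher in every alternative that could be run, except that SNORD10 missed the threshold without Sal–Sal pool 1 and Sal–Coc pool 1 together (adjusted p = 0.0738).

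The largest decreases of this class were of 3 loci known only by clone names. AABR07050212.1 had 60, 133 and 73 reads in Sal–Sal and 4, 4 and 2 in Sal–Coc (log2 fold change -4.67 ± 0.71). AC096600.1 had 24, 22 and 22 against 0, 2 and 3 reads. AABR07026616.1 had 47, 89 and 64 against 4, 0 and 12 reads. The call of AABR07026616.1 was lost in 7 of 21 alternatives, among them those without Sal–Sal pool 1 or 2 or Sal–Coc pool 1 or 2, with a highest adjusted p of 0.116. That of AC096600.1 was lost in 3 of 19, among them those without Sal–Sal pool 1 or Sal–Coc pool 2, with a highest adjusted p of 0.0914.

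From 1 to 10 CPM, Col7a1, the collagen of anchoring fibrils, measured 1.30, 1.31 and 2.93 CPM in Sal–Sal and 7.13, 9.56 and 9.25 CPM in Sal–Coc (4.64-fold, adjusted p = 0.00458). Abcc6, a transporter of the ATP-binding cassette family, went from 0.860 ± 0.25 to 3.71 ± 0.27 CPM (SD, n = 3 pools each), and Acr, the protease of the sperm acrosome, from 0.915 ± 0.313 to 3.16 ± 0.217 CPM. On the other side Marcksl1, an actin-binding substrate of protein kinase C, measured 4.46, 4.55 and 5.00 CPM in Sal–Sal and 0.844, 0.745 and 0.720 CPM in Sal–Coc, a 6.03-fold decrease (adjusted p = 0.00403). Both groups were tight. Ccdc85c, a coiled-coil protein of cell junctions, fell 5.55-fold, and Cebpd, a transcription factor induced by glucocorticoids and inflammation, fell 4.79-fold, from 4.75 ± 1.01 to 0.991 ± 0.0506 CPM.

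From 10 to 50 CPM, Slc12a3, the thiazide-sensitive sodium chloride cotransporter, measured 6.05, 7.91 and 11.3 CPM in Sal–Sal and 19.0, 25.6 and 43.1 CPM in Sal–Coc (3.46-fold, adjusted p = 0.00609). L3mbtl1, a reader of methylated histones, rose from 19.4 ± 9.11 to 59.2 ± 8.45 CPM and Ybx2, a protein that binds messenger RNA in germ cells, from 5.06 ± 1.31 to 13.6 ± 0.516 CPM. Tmem158, a membrane protein known as a target of Ras signalling, measured 46.3, 50.4 and 27.8 CPM in Sal–Sal and 3.49, 6.66 and 9.64 CPM in Sal–Coc (6.32-fold lower, adjusted p = 0.00745). Sal–Sal pool 3 was the lowest of its group. Scand1, a SCAN domain protein, fell 3.82-fold (adjusted p = 0.0134) and Prr7, a proline-rich protein of the postsynaptic density, fell 3.28-fold (adjusted p = 0.0168). Without Sal–Sal pool 1 neither Scand1 nor Prr7 was called, Prr7 was also not called without Sal–Coc pool 2, and their highest adjusted p values over all alternatives were 0.0839 and 0.101.

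From 50 to 200 CPM, Col11a1, a fibrillar collagen chain, measured 24.0, 47.2 and 38.1 CPM against 78.9, 119 and 106 CPM (2.77-fold, adjusted p = 0.00562). Zfp692, a zinc finger protein, rose 2.11-fold, and Dhrs1, a short-chain dehydrogenase, 2.10-fold, with Sal–Coc pools of Dhrs1 at 66.5, 66.6 and 66.8 CPM. Cox8a fell 2.08-fold, from 164, 143 and 127 CPM to 55.7, 75.1 and 78.1 CPM (adjusted p = 0.00904). Prex2, which activates the small GTPase Rac, fell from 240 ± 45.7 to 123 ± 9.73 CPM, and Birc6, a large inhibitor of apoptosis, from 128 ± 9.25 to 67.7 ± 9.52 CPM. Cox8a missed the threshold only without Sal–Sal pool 1 and Sal–Coc pool 1 together (adjusted p = 0.0588), and the other 5 genes were called in all 21 alternatives.

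At 200 CPM and above, Leng8, a protein associated with nuclear messenger RNA export, measured 143, 209 and 249 CPM in Sal–Sal and 444, 449 and 445 CPM in Sal–Coc (2.23-fold, adjusted p = 0.00458). Kcnt1, a sodium-activated potassium channel, rose from 162 ± 13.1 to 339 ± 53.9 CPM and Akap8l, a nuclear anchoring protein, from 170 ± 41.9 to 356 ± 22.1 CPM. These increases were called in all 21 alternatives. Slc1a2, the main glutamate transporter of astrocytes, fell from 530, 439 and 394 CPM to 292, 202 and 260 CPM (1.81-fold, adjusted p = 0.0117). Apoe, the lipid carrier apolipoprotein E, measured 2647.5, 2127.5 and 2487.2 CPM against 1544.1, 1372.6 and 1290.6 CPM, and Cst3, the protease inhibitor cystatin C, 1592.0, 1300.9 and 1559.2 CPM against 899, 849 and 832 CPM. Apoe (adjusted p = 0.0189) and Cst3 (adjusted p = 0.0175) were both 1.73-fold lower. Slc1a2 was not called without Sal–Sal pool 1 (adjusted p = 0.0538), and Apoe and Cst3 were not called without Sal–Sal pool 1, Sal–Coc pool 2 or Sal–Coc pool 3, with highest adjusted p values of 0.0787 and 0.0792.

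**Figure D3:**
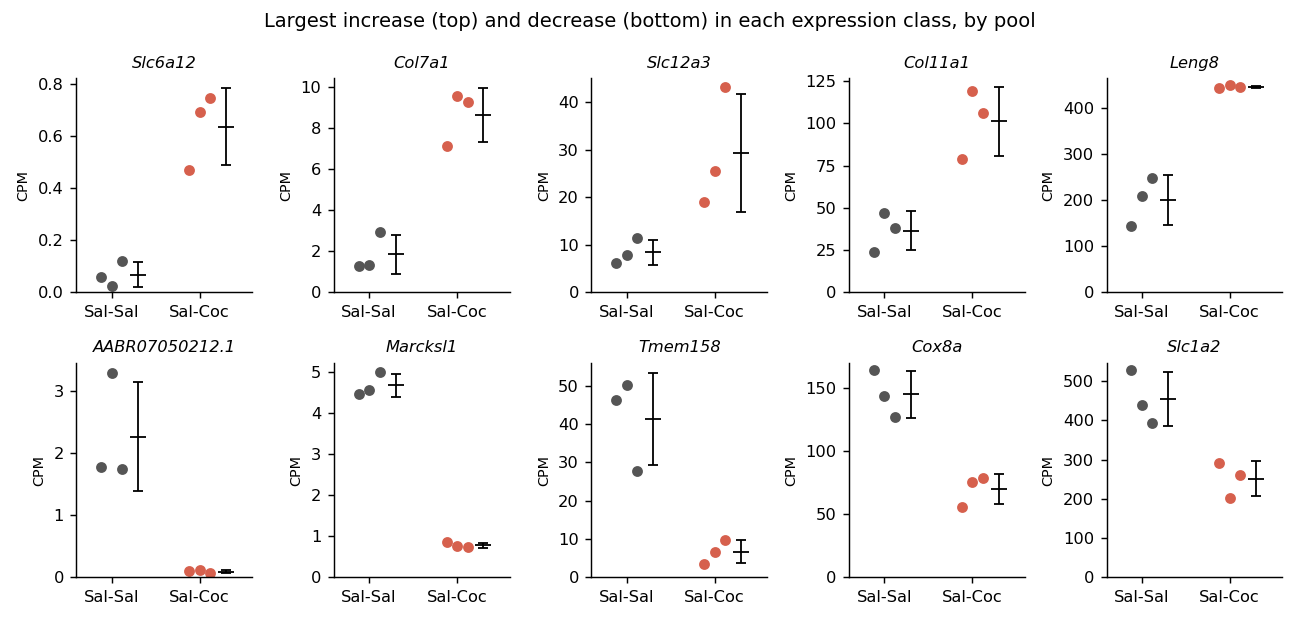
CPM of the gene with the largest increase (top) and the largest decrease (bottom) in each expression class, from the lowest class at the left to the highest at the right; points are pools, and the bar beside them is the mean ± SD of 3 pools. The genes were chosen among those with separate pools, and the largest differences run from 3.15 to 1.16 (increases) and from -4.67 to -0.85 (decreases) on the log2 scale.

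Immediate early genes form the fast transcriptional response to neuronal activity. Of 29 listed genes 5 were paired, of which 4 were called lower in Sal–Coc and 0 higher, beside 28.1% lower among all paired genes. Fos, Fosb and Arc were not paired. Jund measured 69.3, 68.0 and 62.8 CPM in Sal–Sal and 30.9, 33.9 and 33.8 CPM in Sal–Coc (log2 fold change -1.02 ± 0.16, adjusted p = 0.0056). Jun, its AP-1 partner, measured 41.2, 40.7 and 39.6 CPM against 26.3, 23.0 and 29.2 CPM (-0.63, adjusted p = 0.0236). In both genes the pools did not overlap, as in 36.1% of all genes tested and in 2557 of the 2572 called genes. Ier5l fell 3.09-fold, from 5.25 ± 0.544 to 1.70 ± 0.353 CPM, and Egr4, a zinc finger factor, had 40.7, 56.8 and 26.4 CPM against 7.64, 18.5 and 18.8 CPM. Egr4 (adjusted p = 0.0368) lost its call in 9 of 21 alternatives, with a highest adjusted p of 0.127. Dusp1, a phosphatase of MAP kinases, measured 39.1, 33.5 and 41.8 CPM against 36.8, 43.6 and 36.4 CPM, with overlapping pools (log2 fold change 0.03, adjusted p = 0.891). Without Sal–Sal pool 1 or without Sal–Coc pool 2, 1 of the 5 genes was called lower, and without Sal–Sal pool 2, 2 were.

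In the pathway from cAMP to CREB, 7 of 36 listed genes were paired, with 3 higher and 3 lower (62.4% and 28.1% over all paired genes). Their median was 0.36. Creb1 itself measured 8.00, 8.21 and 9.50 CPM in Sal–Sal and 5.16, 5.30 and 5.87 CPM in Sal–Coc (1.58-fold lower, adjusted p = 0.012). Its coactivator Crtc2 measured 30.7, 35.3 and 42.4 CPM against 53.3, 55.5 and 55.7 CPM (1.52-fold higher, adjusted p = 0.00724), and the related factor Atf1 had a log2 fold change of 0.42 (adjusted p = 0.0202). The RNA of Creb1 and Crtc2 thus moved in opposite directions, while the related coactivator Crtc3 was not called (0.36, adjusted p = 0.127, overlapping pools). Creb1 missed the threshold only without Sal–Sal pool 1 and Sal–Coc pool 1 together (adjusted p = 0.051). Pde4a, which breaks down cAMP, rose 1.55-fold (adjusted p = 0.0161), a call lost without Sal–Sal pool 1 or Sal–Coc pool 3 (highest adjusted p = 0.0718). Cdk5r1, the activator p35 of the kinase Cdk5, had a log2 fold change of -0.49 (adjusted p = 0.00967). Fgf2, basic fibroblast growth factor, had 14.5, 12.1 and 10.5 against 6.89, 8.23 and 10.2 CPM (-0.55, adjusted p = 0.0441) and lost its call in 11 of 21 alternatives, with a highest adjusted p of 0.203. Of the 3 increases 1 was called without Sal–Sal pool 1 and 1 without Sal–Coc pool 3.

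Glutamate receptors and transporters moved in both directions. Of 29 listed genes 7 were paired, 2 were higher and 4 lower (62.4% and 28.1% over all paired genes). The kainate receptor subunit Grik5 measured 226, 233 and 231 CPM in Sal–Sal and 305, 361 and 432 CPM in Sal–Coc (1.59-fold, adjusted p = 0.00689). The obligatory NMDA receptor subunit Grin1 measured 479, 517 and 530 against 637, 734 and 733 CPM (1.38-fold, adjusted p = 0.0111). Its partner Grin2b went the other way, from 61.9, 54.0 and 70.3 to 34.2, 35.8 and 45.8 CPM (1.61-fold lower, adjusted p = 0.0149), a call that was lost without Sal–Sal pool 1, without Sal–Coc pool 2 and without both pools that stood apart, with a highest adjusted p of 0.0857. Of the 4 decreases 1 was called without Sal–Sal pool 1 and 2 without Sal–Coc pool 2. The group II metabotropic receptor Grm3 fell from 170, 127 and 167 to 84.7, 89.0 and 88.9 CPM (1.77-fold, adjusted p = 0.00473), and the group I receptor Grm5 had a log2 fold change of -0.56 (adjusted p = 0.0168). Gria1, an AMPA receptor subunit, measured 388, 427 and 436 against 417, 431 and 494 CPM (0.10, adjusted p = 0.537). Dlg2, a scaffold of the postsynaptic density and the only paired gene of its list, had a log2 fold change of -0.46 (adjusted p = 0.0401) and lost its call in 10 of 21 alternatives.

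Of 22 genes of GABA receptors and handling 5 were paired, with 4 lower and 1 higher (28.1% and 62.4% over all paired genes). Gabrb1, a subunit of the GABA-A receptor, measured 47.2, 44.2 and 61.5 CPM in Sal–Sal and 27.2, 24.7 and 25.9 CPM in Sal–Coc (1.97-fold lower, adjusted p = 0.00403). Gabrg3, a further subunit of that receptor, had a log2 fold change of -0.66, and Slc32a1, the vesicular GABA transporter of inhibitory neurons, of -0.36. Gabrg3 was not called without Sal–Sal pool 1 or Sal–Coc pool 2 (highest adjusted p = 0.0879). The gene that rose was Slc6a13, the GABA transporter GAT2 of the meninges and vessels, with 3.19, 3.78 and 4.09 CPM against 10.2, 10.5 and 9.67 CPM (2.74-fold, adjusted p = 0.00376). Without Sal–Coc pool 2, 1 of the 4 decreases was called, without Sal–Sal pool 1, 2 were, and the increase of Slc6a13 was called in all 21 alternatives.

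Channels and the proteins of vesicle release set the excitability and output of neurons. Of the 5 paired of 22 voltage-gated calcium channel genes 4 were higher, beside 62.4% of all paired genes. Among the 4 were Cacna1d (88.8, 119 and 127 against 171, 162 and 190 CPM, 1.56-fold, adjusted p = 0.0103) and Cacna1a (172, 181 and 205 against 257, 261 and 328 CPM, 1.52-fold, adjusted p = 0.00855), which form L-type and P/Q-type channels. Cacna1e, the R-type channel, had 231, 256 and 270 against 193, 167 and 224 CPM (log2 fold change -0.38, adjusted p = 0.0744). Among voltage-gated sodium and potassium channels 2 of 38 were paired, Kcnh4 at 0.57 on the log2 scale (adjusted p = 0.0194) and Kcnh7 at -0.88 (adjusted p = 0.00581). Kcnh4 was not called without Sal–Sal pool 1, Sal–Coc pool 2 or Sal–Coc pool 3, with a highest adjusted p of 0.0769. The 2 paired genes of vesicle release, of 30 listed, were both higher, beside 62.4% of all paired genes. Unc13a, which primes vesicles, measured 146, 155 and 163 against 224, 222 and 284 CPM (adjusted p = 0.00619), and Syt7, a calcium sensor, 139, 151 and 154 against 212, 203 and 274 CPM (adjusted p = 0.00764).

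Dopamine and monoamine handling had 2 paired genes of 18, both higher, beside 62.4% of all paired genes. Ddc, the decarboxylase that makes dopamine and serotonin, measured 9.21, 18.6 and 11.5 CPM in Sal–Sal and 27.7, 20.7 and 20.1 CPM in Sal–Coc (1.73-fold, adjusted p = 0.0419), and Slc18a1, a vesicular monoamine transporter, 10.1, 14.2 and 14.7 against 18.2, 21.5 and 23.7 CPM (1.62-fold, adjusted p = 0.0148). Ddc lost its call in 12 of 21 alternatives (highest adjusted p = 0.203), and Slc18a1 lost it without Sal–Coc pool 3 (adjusted p = 0.0553). Of the striatal neuropeptides and receptors (2 of 28 paired), Nts, the peptide neurotensin, measured 46.5, 47.4 and 35.3 against 53.2, 45.8 and 53.9 CPM (log2 fold change 0.24, adjusted p = 0.174), and Sstr3, a somatostatin receptor, had an adjusted p of 0.544. Pvalb, a calcium buffer of fast interneurons and the 1 paired interneuron marker of 16, had 9.68 ± 2.07 against 11.2 ± 0.967 CPM with overlapping pools (log2 fold change 0.21, adjusted p = 0.375), and it was called higher without both pools that stood apart (0.45, adjusted p = 0.0488). In the list of axon and neurofilament genes Marcksl1 was lower and Nefl, Nefm and Ina, the neurofilament proteins, did not pass the test (log2 fold changes from -0.16 to 0.17).

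Chromatin regulators were called in both directions, with 6 higher and 2 lower among 8 paired of 59 (62.4% and 28.1% over all paired genes). The histone deacetylases Hdac10 (12.9, 15.6 and 16.8 against 27.1, 31.4 and 26.1 CPM, adjusted p = 0.00403) and Hdac7 (10.5, 12.6 and 16.9 against 30.2, 21.5 and 22.6 CPM, adjusted p = 0.0134) rose 1.87- and 1.85-fold, and Hdac7 was not called without Sal–Sal pool 1 (highest adjusted p = 0.0695). Dnmt3a, which sets DNA methylation, went from 51.1 ± 8.10 to 84.7 ± 9.15 CPM (log2 fold change 0.73, adjusted p = 0.0057). Tet1, which removes it, went from 6.73 ± 1.37 to 3.58 ± 0.838 CPM (adjusted p = 0.0269). These are RNA levels of single genes, and DNA methylation was not measured. The call of Tet1 was lost in 8 of 21 alternatives, among them those without Sal–Sal pool 1, Sal–Sal pool 3, Sal–Coc pool 2 or Sal–Coc pool 3, with a highest adjusted p of 0.0781.

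Of the core clock 4 of 23 genes were paired, with 2 higher and 1 lower (62.4% and 28.1% over all paired genes). Per3 (84.3, 111 and 111 against 145, 148 and 168 CPM, adjusted p = 0.0111) and Per2 (43.2, 52.6 and 49.6 against 59.8, 76.7 and 74.9 CPM, adjusted p = 0.0271), repressors of the clock, rose 1.51- and 1.45-fold. Bhlhe41, another repressor, fell from 29.3, 30.6 and 27.8 to 16.7, 18.3 and 17.3 CPM (adjusted p = 0.00376). Per2 missed the threshold without Sal–Sal pool 1, Sal–Coc pool 2 or Sal–Coc pool 3, with a highest adjusted p of 0.105. Of the targets of glucocorticoids (4 of 24 paired) 3 were lower, beside 28.1% of all paired genes. They were Cebpd, Ddit4, a brake on mTOR (1.44-fold lower, adjusted p = 0.0116), and Tsc22d3, known as GILZ (log2 fold change -0.43, adjusted p = 0.01). Among heat shock proteins (2 of 20 paired) Dnajb1 was 1.40-fold lower (adjusted p = 0.00751), and Hspa5, a chaperone of the endoplasmic reticulum, had a log2 fold change of -0.33 (adjusted p = 0.0724).

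Ribosomal proteins build the machinery of protein synthesis. All 33 paired genes of cytosolic ribosomal proteins were called lower, beside 28.1% of all paired genes, with log2 fold changes from -0.71 to -0.42 and a median of -0.47, beside a median of 0.54 over all paired genes and of -0.01 over all genes tested. None of them passed the 1.2-fold limit. This list was a symbol pattern matched among paired genes, as were those of the respiratory chain and the ABC transporters. Ribosomal protein genes that the study did not list are therefore not counted, and the share of all such genes that were lower is not known here. Rpl36 measured 33.8, 28.3 and 25.6 CPM in Sal–Sal and 15.4, 19.7 and 18.5 CPM in Sal–Coc (1.64-fold lower, adjusted p = 0.0149), and Rps13 35.1, 29.8 and 25.4 against 17.6, 20.6 and 19.4 CPM (adjusted p = 0.013). Rpl19, whose start is printed above, measured 297, 274 and 243 against 185, 214 and 186 CPM (adjusted p = 0.0182). Summed over the list, the Sal–Sal pools lay between 4648 and 6040 CPM and the Sal–Coc pools between 3539 and 4218 CPM. Sal–Sal pool 1, which had the lowest normalization factor, was the highest of the 6 for each of these 3 genes.

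The ribosomal calls depended on single pools, of both groups. Of the 33 genes 0 were called without Sal–Sal pool 1 (lowest adjusted p 0.0502), although all 33 stayed below 0 with a median of -0.38. Without Sal–Sal pool 2, 17 were called, without Sal–Coc pool 1, 12, and without Sal–Coc pool 3, 3. Without both pools that stood apart 32 were called, and with scaling by library size only 26. Ribosomal protein genes have many processed copies in the genome, and the authors removed reads that mapped more than once, so that their levels are uncertain. All 7 paired nuclear-encoded genes of the respiratory chain were lower as well, beside 28.1% of all paired genes. Their median log2 fold change was -0.45, and Cox8a (above) was the farthest from 0. Atp5d, a subunit of ATP synthase, measured 140, 131 and 111 against 83.8, 96.6 and 92.2 CPM (adjusted p = 0.0225). Of these, 3 were called without Sal–Sal pool 1, 3 without Sal–Coc pool 1, 3 without Sal–Coc pool 3 and 4 without Sal–Coc pool 2. Mrpl34, the only paired gene of the mitochondrial ribosome, fell 1.65-fold (adjusted p = 0.00745).

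ABC transporters move lipids, drugs and ions across membranes with ATP. Of 14 paired members 13 were called higher, beside 62.4% of all paired genes, with a median log2 fold change of 0.77, and 6 passed the 1.2-fold limit. Besides Abcc6, Abcd4 of vitamin B12 transport measured 12.1, 15.3 and 15.6 against 23.7, 29.8 and 29.1 CPM (0.94, adjusted p = 0.00458). Abca7, a lipid transporter, measured 10.9, 10.2 and 15.0 against 23.8, 20.3 and 24.3 CPM (0.92, adjusted p = 0.00621), and Abcc8, the sulfonylurea receptor of KATP channels, 16.3, 17.4 and 18.1 against 28.9, 30.6 and 38.6 CPM (0.92, adjusted p = 0.00403). Abcg2, the efflux pump of the blood-brain barrier, had 4.13, 2.22 and 4.14 against 5.06, 6.20 and 7.04 CPM (0.80, adjusted p = 0.0657). Without Sal–Coc pool 3, 7 of the 14 were called and without Sal–Sal pool 1, 9.

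**Figure D4:**
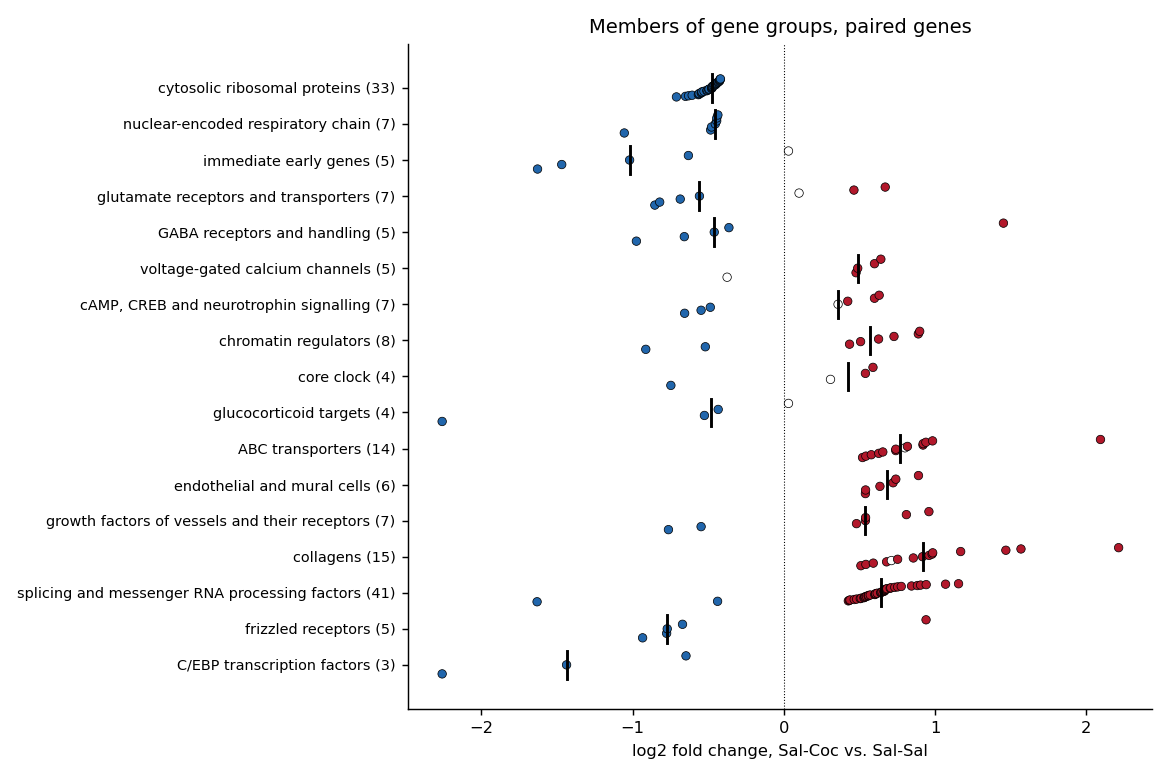
Log2 fold changes in Sal–Coc vs. Sal–Sal of the paired members of 17 gene groups, with the number of members in brackets; red points were called higher, blue points lower and open points neither, and the vertical bar is the median. The cytosolic ribosomal proteins lie between -0.71 and -0.42 and the ABC transporters between 0.52 and 2.10, while glutamate, GABA and chromatin genes lie on both sides of 0.

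Of 18 markers of endothelial and mural cells 6 were paired and all 6 were higher, beside 62.4% of all paired genes. They ranged from 0.54 to 0.89 on the log2 scale, and their sum rose from between 71.1 and 87.1 CPM in Sal–Sal to between 123 and 127 CPM in Sal–Coc. Esam, an endothelial adhesion protein, measured 6.14, 5.19 and 5.64 against 10.2, 10.2 and 11.1 CPM (1.86-fold, adjusted p = 0.00854), and Abcc9, a subunit of the KATP channel of pericytes, 7.61, 8.21 and 10.1 against 12.9, 14.5 and 16.0 CPM (1.67-fold, adjusted p = 0.027). Of the 6, 3 were called without Sal–Sal pool 1 and 3 without Sal–Coc pool 3, 2 without Sal–Sal pool 2 and 2 without Sal–Coc pool 2, and 4 without Sal–Coc pool 1 or without both pools that stood apart. Growth factors of vessels and their receptors (7 of 24 paired) had 5 higher and 2 lower (62.4% and 28.1% over all paired genes). Among the higher were Nos3, endothelial nitric oxide synthase (1.95-fold, adjusted p = 0.0208), and Tie1, an endothelial receptor (1.75-fold, adjusted p = 0.00875). The lower were Fgf2 and Vegfb (1.70-fold lower, adjusted p = 0.0119). Nos3 was not called without Sal–Sal pool 1 or 2 or Sal–Coc pool 2 or 3 (highest adjusted p = 0.0684), and Vegfb was not called without Sal–Sal pool 1 (0.0538). Markers of meninges and fibroblasts (3 of 13 paired: Slc6a13, Vtn and Ranbp3l) summed to between 12.4 and 18.0 CPM against 27.3 to 28.3 CPM. Slc6a13 stands in both this list and that of GABA handling.

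Few glial markers were paired. Of 16 astrocyte markers 2 were paired, Slc1a2 and S100b, a calcium-binding protein (1451.5, 1308.9 and 1144.6 against 931, 908 and 899 CPM, adjusted p = 0.0269), and their sum went from between 1539 and 1981 CPM to between 1110 and 1223 CPM. Of 16 microglial markers 2 were paired, the complement chains C1qb (41.0 ± 3.98 against 28.1 ± 2.21 CPM, adjusted p = 0.0156) and C1qc (34.5, 29.6 and 28.8 against 21.2, 19.1 and 17.6 CPM, adjusted p = 0.0175), with sums of 66.7 to 79.6 against 43.3 to 49.9 CPM. S100b, C1qb and C1qc were not called without Sal–Sal pool 1 or without Sal–Coc pool 3, with highest adjusted p values of 0.109, 0.0767 and 0.0794. Of 10 markers of oligodendrocyte precursors Sox11, also a marker of new neurons, fell 2.22-fold (adjusted p = 0.00562) and Vcan, a matrix proteoglycan, 1.47-fold (adjusted p = 0.00428). Lef1, the 1 paired marker of 19 for the septum, the preoptic area and the thalamus, a partner of beta-catenin, measured 1.92, 2.64 and 2.48 against 5.49, 5.24 and 5.51 CPM (2.30-fold, adjusted p = 0.00518). Hba-a2, the 1 paired blood marker of 13, had 0.974, 0.297 and 0.619 against 0.539, 1.25 and 0.803 CPM (adjusted p = 0.537). No marker of projection neurons, oligodendrocytes, choroid plexus, cortical excitatory neurons or the olfactory tubercle was paired. The part of the cell composition of the pools in the results above was not tested.

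Some families were picked out after their values had been seen, by symbol and among paired genes only, and are given as a description. Of 41 genes of splicing and messenger RNA processing 39 were called higher, beside 62.4% of all paired genes. Of the 41, 29 passed the 1.2-fold limit, and the median log2 fold change was 0.64, beside 0.54 over all paired genes. They included Snrnp70, the U1 particle protein (450 ± 72.1 to 842 ± 55.8 CPM), Srrm2, a scaffold of nuclear speckles (log2 fold change 0.78), Ddx39b, an export helicase (0.67), and the kinase Clk3 (0.68), while Hnrnpa0 (-1.63) and Rbm42 (-0.44) were lower. Without Sal–Coc pool 2, 31 were called higher, and without Sal–Sal pool 1, 32. Of 10 paired small nucleolar and Cajal body RNA genes 9 were called higher and 0 lower (62.4% and 28.1% over all paired genes). Of the 10, 4 were called without Sal–Sal pool 1, without Sal–Coc pool 2 or without Sal–Coc pool 3. Their mean levels were low, from 0.31 to 3.15 CPM. The libraries were made from polyadenylated RNA, and whether these reads came from the small RNAs or from host transcripts was not tested.

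Of 15 paired collagens 14 were called higher and 0 lower (62.4% and 28.1% over all paired genes), with a median of 0.92. Besides Col7a1 and Col11a1 they included the basement membrane chains Col4a1 (25.8 ± 2.36 to 43.5 ± 3.53 CPM) and Col4a2 (40.4 ± 8.16 to 73.3 ± 1.74 CPM), which rose with the vessel markers above. Without Sal–Sal pool 1, 7 of the 15 collagens were called. Beside 28.1% of all paired genes, 4 of 5 frizzled receptors for Wnt ligands were lower (Fzd1, Fzd2, Fzd3 and Fzd9, with Fzd6 higher). All 3 paired C/EBP factors were lower too. Without Sal–Sal pool 1, 1 of the C/EBP factors and 3 of the frizzled receptors were called lower. Fzd6 was not called when any pool but Sal–Sal pool 2 was left out. The purine-rich element binding proteins Pura, Purb and Purg and the 3 paired Irf2bp corepressors were lower as well. Vps13a and Vps13b, very large proteins of lipid transfer, had log2 fold changes of -1.16 and -0.81. Of the BEACH domain proteins, Lyst and Nbeal1 had -0.93 and -1.20, and Nbeal2 had 0.84. Nbeal2 was not called without Sal–Sal pool 1.

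**Figure D5:**
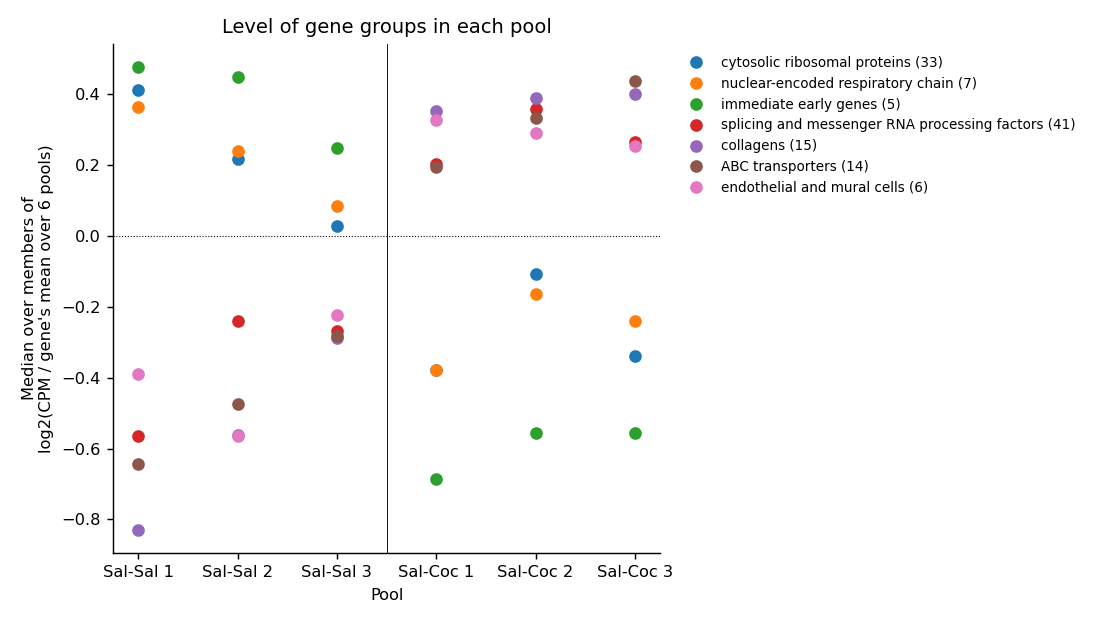
For each pool and gene group, the median over members of log2 of the CPM divided by the gene's mean over the 6 pools, with the number of members in brackets. Each of the 7 groups separates the Sal–Sal from the Sal–Coc pools. The members come from genes the study listed as differentially expressed on these libraries, so this separation is not independent evidence. The collagens and the splicing group were also picked after their values were seen. Sal–Sal pool 1 lies farthest out for the ribosomal proteins (0.41, against 0.22 and 0.03 in the other Sal–Sal pools) and the collagens (-0.83, against -0.56 and -0.29).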

How the data were processed

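Polyadenylated RNA was prepared with a strand-specific kit. The authors trimmed the reads, aligned them with STAR to the rat genome of Ensembl, discarded multiply mapped reads and deposited raw counts per gene, without normalization. The submitters' processing notes also name bcl2fastq 2.17.1.14 and HTSeq 0.5.3. Whether the counting used strand is not given in the sources used here. Counts of the 4 technical replicates of a pool (chi-square per degree of freedom 1.0038 to 1.0226) were summed. Sal–Coc was compared with Sal–Sal in edgeR 4.0.16 (R 4.3.3), with filterByExpr, TMM factors and a quasi-likelihood model of all 9 pools, Benjamini-Hochberg adjustment, a threshold of 0.05, and glmTreat for limits of 1.2- and 1.5-fold. The common biological coefficient of variation was 14.68%.

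Symbols were joined by value: fold changes in the study's supplement served only as a key to match ratios of normalized group means, and 1506 symbols met exactly 1 identifier. A key moved by a thousandth still met an identifier in at most 3.54% of cases. The members and lists were chosen with earlier results of these data known. In each expression class the 3 largest increases and decreases among called genes with a symbol and separate pools are named, and up to 4 members of each list, with further genes chosen after their values were seen. An exact two-sided permutation test of 3 pools against 3 cannot give a p below 0.1. Scripts were tested on simulated data. Alternatives were DESeq2 1.42.0, limma-voom (limma 3.58.1), other normalizations and filters, fewer pools and a block. Some members of the lists are counted but not reported here by name.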

Additional observations from a re-analysis of the deposited data

How the results depend on the processing

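Over the alternatives, 1714 values of the 82 named genes were computed, and 0 of the called genes changed direction. The gene Sstr3, which was not called at 0.224 on the log2 scale, stood at -0.079 with technical replicate a alone, at -0.022 to 0.383 when 1 pool was left out (the lowest without Sal–Coc 1) and at -0.15 without Sal–Sal 1 and Sal–Coc 1. Of the 78 called named genes, 40 were called in all alternatives that could be run. The calls lost among named genes were 31 without Sal–Sal pool 1, 22 without Sal–Coc pool 2, 18 without Sal–Coc pool 3, 11 without Sal–Sal pool 2 and 7 or fewer without any other single pool. Leaving out 1 pool at a time gave 982 to 2835 called genes (775 to 1706 higher, 207 to 1129 lower), 0 to 912 past the 1.2-fold limit, 0 to 50 past the 1.5-fold limit and a median absolute log2 fold change of 0.193 to 0.254 (0.216 with all pools). With only the 6 pools compared there were 1445 calls (987 higher, 458 lower), 206 past the 1.2-fold limit and 1 past the 1.5-fold limit. Library size scaling gave 392 lower genes and DESeq2 1494 (3552 calls in all). Without a filter on low counts 12 genes passed the 1.5-fold limit. Technical replicate a alone gave 589 lower genes, with 370 past the 1.2-fold limit and 12 past the 1.5-fold limit. With 2 pools left out, settings chosen after seeing the data, 929 and 53 genes passed the limits without Sal–Sal 3 and Sal–Coc 1, and without Sal–Sal 1 and Sal–Coc 1 there were 1160 calls (835 higher, 325 lower) and 112 past the 1.2-fold limit. Dividing genes into 10 expression classes of equal size in place of 5 moved the highest share of calls in a class from 21.3% to 24.4%. The cause of these differences was not tested.

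Pools of all 3 groups carry the numbers 1 to 3. The deviations of same-numbered pools from their group means correlated at -0.028 on average (9 pairs, -0.359 to 0.25), so the numbers were not taken to pair the pools. A fit with the number as a replicate block called 2084 genes (1389 higher, 695 lower), 397 past the 1.2-fold limit. At this depth genes under 1 CPM had a median standard error of 0.39, which limited their calls to differences of at least 0.84 on the log2 scale.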
